A study of Mus musculus with 42 samples.

Results

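The effect of an Fmr1 knockout was followed in cortical cultures, that is, in cells of the embryonic cortex grown in a dish until neurons had matured. These cultures made up 10 of the 42 arrays of the study, 5 from Fmr1KO and 5 from wild-type (WT) embryos, and they were chosen by their titles alone. Embryos of the C57BL/6 background had been taken on day 17 or 18, tissue of littermates had been pooled, and the cells had been kept for 14 days in vitro without treatment in Neurobasal medium with B27. The Fmr1KO strain had been bred onto this background, and embryos of both genotypes were cultured in parallel. According to the methods, Fmr1KO and WT cultures were handled as same-day pairs. No label names these pairs, so the comparison was unpaired. The knockout is constitutive, so neurons and glia of a dish share it. Each array took 100 ng of RNA and bears a mouse ID, here used as the name of the replicate: 2037, 2038, 2221, 2620 and 4236 for Fmr1KO, and 2236, 2643, 2644, 3569 and NT for WT. The same IDs recur on hippocampal culture and primary cortex arrays, and no ID occurs in both genotypes.

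Fmr1 encodes FMRP, an RNA-binding protein that sits on messenger RNAs in neurons and holds back their translation at synapses. Loss of FMRP causes fragile X syndrome. Signaling through the group I metabotropic glutamate receptors, among them mGluR5, drives synaptic protein synthesis, and this signaling is exaggerated without FMRP. Because FMRP acts on protein synthesis, its absence need not change the amount of a target's messenger RNA, which is what these arrays measure.

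The level of Fmr1 itself was compared first, as a check of the labels. The main Fmr1 probe set read 7.98, 7.92, 8.44, 8.13 and 7.90 in the Fmr1KO arrays 2037, 2038, 2221, 2620 and 4236, on the log2 scale of the RMA level. It read 8.96, 8.47, 9.28, 9.09 and 9.05 in the WT arrays 2236, 2643, 2644, 3569 and NT. Every Fmr1KO array lay below every WT array, although Fmr1KO 2221 and WT 2643 nearly touched. The mean was 8.07 ± 0.22 (SD, n = 5) in Fmr1KO and 8.97 ± 0.30 (SD, n = 5) in WT. The log2 difference was -0.90 with a standard error of 0.15, which is 1.86-fold lower. The two-sided exact permutation test over the 10 arrays gave p = 0.00794, the smallest that 5 against 5 allows. A second, dimmer Fmr1 probe set was lower by a log2 difference of -0.66 (SE 0.12) with no overlap between genotypes, and the remaining one differed by -0.16 (SE 0.11) with overlapping groups. Fmr1 lies on the X chromosome at chrX:68678536-68717963 in GRCm38.p6. The probe sets are not mapped to parts of the transcript here, so these levels say nothing of the protein.

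**Figure D1:**
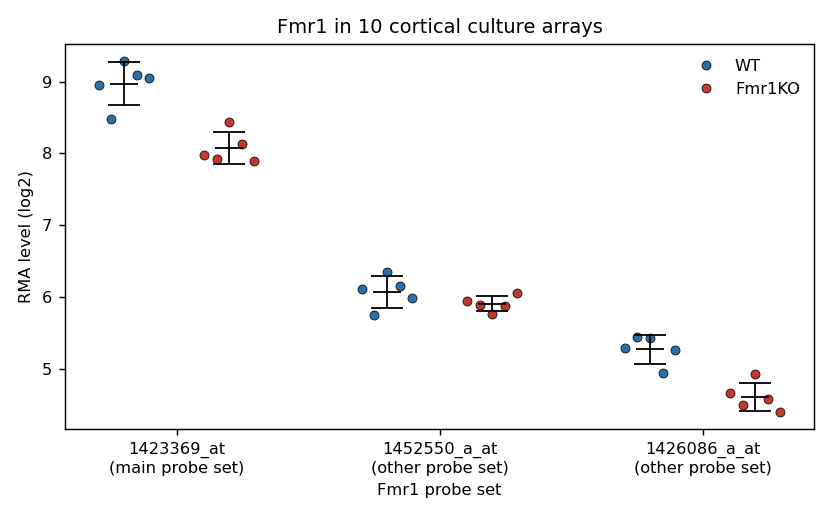
RMA level (log2) of the 3 Fmr1 probe sets in each of the 5 WT (blue) and 5 Fmr1KO (red) cortical culture arrays, with mean and SD as black bars. In the main probe set the Fmr1KO arrays lie between 7.90 and 8.44 and the WT arrays between 8.47 and 9.28.

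Across the genome the difference between genotypes was small beside the spread of the arrays. Each of 18194 genes was represented by its brightest probe set over all 42 arrays and tested with limma on the 10 cortical culture arrays. At the unadjusted p under 0.05 that the study used as its threshold, 839 genes (4.61% of those tested) were called, 445 higher (2.45%) and 394 lower (2.17%) in Fmr1KO. A threshold of this kind passes 5% of genes when nothing differs. With Benjamini-Hochberg adjustment over all probe sets, limma called 0 genes, and the lowest adjusted p, that of Fmr1, was 0.889. The calls described here therefore rank the genes of these 10 arrays, and none of them passed the correction for the number of tests, Fmr1 included. Of the 839 genes, 18 differed by at least 1.5-fold, 6 higher and 12 lower. Of the called genes 71.2% were above background, against 65.8% of all genes.

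The arrays did not sort by genotype along the main axis of variation. The first principal component of the genes above background carried 46.8% of the variance among the 10 arrays. Fmr1KO arrays 2037, 2038, 2221 and 2620 scored between 9.75 and 16.5 on it and WT 2236 scored 32.8. At the other end stood Fmr1KO 4236 at -29.3, WT 3569 at -28.3 and WT NT at -28.9, with WT 2643 at 3.15 and WT 2644 at -1.26 between. Fmr1KO 4236 thus lay beside WT arrays and WT 2236 beyond the other Fmr1KO arrays, while the Fmr1 level of both was that of their labelled genotype. The mean score did not differ between genotypes beyond this spread (two-sided exact permutation p = 0.579). Without Fmr1KO 4236 the test called 1764 genes (9.70%), 1175 higher and 589 lower, and without WT 2236 it called 1395 (7.67%), 807 higher and 588 lower. Without Fmr1KO 2037 it called 490. For some gene lists, counts are also given without Fmr1KO 4236 and without WT 2236, and lists shown without such counts changed too. Without Fmr1KO 4236, for instance, 6 of 26 apoptosis genes were called higher, where 2 were in the main fit. The RAS to MAPK cascade then had 2 higher and 5 lower of 35, where 6.46% and 3.24% of all genes were. Centring each array on its own median moved the split to 682 higher (3.75%) and 209 lower (1.15%), so that the share of higher genes among those called rose from 53.0% to 76.5%. The median difference of all genes moved from 0.01 to 0.03 on the log2 scale.

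The genes most clearly lower in Fmr1KO cortical culture included secreted and vesicle proteins of neurons. Vgf, Bdnf, Nptx2 and Ptprn were lower by log2 differences between -0.50 and -1.12, and the adhesion molecules Dscam and Pcdh9 by -0.42 and -0.47. These are among the 10 lower genes above background with the smallest p after Fmr1, chosen on this very contrast. Each of them had an adjusted p of 0.889 by limma. Vgf encodes a neuropeptide precursor released from dense core vesicles. Its level was 9.85, 9.89, 10.27, 10.24 and 10.20 in Fmr1KO and 11.18, 10.65, 10.48, 10.56 and 10.68 in WT, in the order of the mouse IDs above. The groups did not overlap, WT 2236 was the highest, and the log2 difference was -0.62 (SE 0.14), or 1.54-fold. When the spread was estimated over all 42 arrays or over the 20 culture arrays, the Vgf call was lost (unadjusted p = 0.081 and 0.075). Bdnf encodes brain-derived neurotrophic factor, a growth factor for neurons and synapses. It read 9.14, 8.85, 9.52, 9.41 and 9.36 in Fmr1KO and 10.47, 10.01, 10.05, 9.75 and 9.58 in WT. Here too every Fmr1KO array was below every WT array, with a log2 difference of -0.72 (SE 0.17), or 1.64-fold. The Bdnf call was lost with the spread of the 20 culture arrays (unadjusted p = 0.11). Its other probe set fell by 0.55 on the log2 scale (SE 0.15), with overlapping groups. Nptx2 encodes a neuronal pentraxin that is secreted at excitatory synapses and clusters AMPA receptors. It read 4.93, 4.86, 5.38, 5.50 and 5.54 in Fmr1KO and 6.95, 6.42, 5.33, 6.41 and 6.70 in WT. Only WT 2644 fell among the Fmr1KO arrays, and the log2 difference of -1.12 (SE 0.27), or 2.17-fold, was the largest among the 839 genes. Fmr1KO levels of Nptx2 straddled the background level of 5.16, where an array no longer follows a decrease, and its other probe set was below background in both genotypes. Groups that did not overlap were found for 119 of all genes tested (0.654%), 80 of them lower (0.440%).

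The other lower genes varied less between arrays. Ptprn, a membrane protein of dense core vesicles, had a mean of 8.73 ± 0.25 (SD, n = 5) in Fmr1KO and 9.22 ± 0.13 (SD, n = 5) in WT, and Fmr1KO 4236 at 9.10 was the one array that reached into the WT range, which began at 9.01. Dscam, a homophilic adhesion molecule of dendrites and axons, had a mean of 8.32 ± 0.13 (SD, n = 5) in Fmr1KO against 8.74 ± 0.17 (SD, n = 5) in WT. WT 3569 at 8.48 lay below Fmr1KO 2620 at 8.53, and the 3 other Dscam probe sets above background were also called lower. Pcdh9, a protocadherin, ranged from 10.64 to 11.24 in Fmr1KO and from 11.22 to 11.61 in WT, an overlap by 1 array. Its 2 other probe sets were in the same direction and were not called. Trpv2, a cation channel, fell by 0.37 on the log2 scale (SE 0.09) without overlap. The kinetochore gene Nsl1 (-0.29), the antigen-presenting molecule Mr1 (-0.29) and Fam120c on the X chromosome (-0.25) completed the 10, all without overlap, and Mr1 lay near background in both genotypes.

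Of the 12 genes lower by at least 1.5-fold, Fmr1, Nptx2, Bdnf and Vgf are described above. Crhbp, which binds corticotropin-releasing hormone, differed by -0.84 (SE 0.36), Fam135b by -0.74 (SE 0.27), and the postsynaptic scaffold gene Dlgap2 by -0.73 (SE 0.33). The sorting receptor gene Sorcs3 differed by -0.64 (SE 0.19), the Ras effector gene Rin1 by -0.64 (SE 0.24), the cation channel gene Trpc5 by -0.64 (SE 0.18), and Tmem178b by -0.62 (SE 0.26). These 7 overlapped between genotypes, and Crhbp, Fam135b, Rin1 and Trpc5 lay close to background. Brinp1 differed by -0.59 (SE 0.19) and did not overlap, with Fmr1KO arrays between 9.05 and 9.92 and WT arrays between 9.96 and 10.25. For Crhbp, 3 WT arrays read 5.58, 6.15 and 6.22, whereas WT 2644 at 4.57 and WT 3569 at 4.19 were no higher than the Fmr1KO arrays, which lay between 4.30 and 4.63. The 6 genes higher by at least 1.5-fold all overlapped. They included the extracellular matrix genes Ltbp2 (0.89, SE 0.40), Eln, or elastin (0.67, SE 0.26), and Col4a4 (0.64, SE 0.25), and the others were Abtb2 (0.87, SE 0.36), Arsi (0.59, SE 0.24) and Sgo2a (0.59, SE 0.23). Ltbp2 read 7.34 in Fmr1KO 4236 and 8.25 to 9.65 in the other Fmr1KO arrays, beside 7.14 to 8.36 in WT. For Abtb2, WT 2643 read 4.04 and the next lowest WT array 5.28, so the size of its difference leans on WT 2643. The WT means of Col4a4 (4.98) and Arsi (5.07) lay below background. All genes in this paragraph were picked by their size of change.

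Upstream sequence was searched for TGACG, on both strands, the core letters of the cAMP response element to which the activity-regulated factor CREB binds. Windows of 250 bases before the start were taken from RefSeq (GRCm38.p6) for 17 of the 20 genes named in both directions; Vgf, Nptx2 and Nsl1 were not matched. Of 7 lower genes, 3 (Bdnf, Ptprn and Pcdh9) held the letters in at least 1 window, as did 1 of 10 higher genes (Sdhaf3), against 19.8% of all genes in the table. By window, 4 of 17 held them for the lower genes and 1 of 13 for the higher genes, beside 17.8% of all windows. A gene with several starts has more windows in which a match can fall, and the Pcdh9 windows overlap and share their match. The counts are too small to tell the lower genes from all genes. A match of 5 letters is a description and not a binding site. Bdnf has 7 starts in the table, and the letters stand before 1 of them. That window, on the plus strand at chr2:109692186-109692435, lies between the first and the last of these starts. It is shown because Bdnf had the largest difference of the 3 genes, and the capitals mark the letters, which read TGACG on the opposite strand.
Bdnf: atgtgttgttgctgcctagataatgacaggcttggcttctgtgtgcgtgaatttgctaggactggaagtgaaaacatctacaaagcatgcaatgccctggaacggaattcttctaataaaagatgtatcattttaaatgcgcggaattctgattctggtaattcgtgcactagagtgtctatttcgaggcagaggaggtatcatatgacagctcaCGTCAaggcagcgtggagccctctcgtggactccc

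The genes most clearly higher in Fmr1KO differed by less. Eef2k, the kinase that slows elongation by phosphorylating elongation factor eEF2, read 8.67, 8.76, 8.63, 8.66 and 8.58 in Fmr1KO and 8.45, 8.39, 8.40, 8.38 and 8.35 in WT. No array overlapped, and the log2 difference was 0.27 (SE 0.06), or 1.20-fold. Its 2 other probe sets, both dimmer, differed by 0.07 (SE 0.11) and -0.03 (SE 0.09), so the call rests on 1 probe set. Eif2s3x, the X-linked subunit of initiation factor eIF2, was higher by 0.26 (SE 0.07) without overlap, at 10.63 ± 0.08 (SD, n = 5) against 10.37 ± 0.07 (SD, n = 5). A second Eif2s3x probe set of like brightness was higher by 0.15 (SE 0.06), and a dimmer one differed by -0.25 (SE 0.37). Rprm, a p53 target linked to cell cycle arrest, was higher by 0.39 (SE 0.09), with Fmr1KO 2221 within the WT range. Sdhaf3, an assembly factor of succinate dehydrogenase, was higher by 0.32 (SE 0.08), and Txnrd3, a thioredoxin reductase, by 0.45 (SE 0.11). Mier1, a partner of histone deacetylases, was higher by 0.44 (SE 0.11), with Fmr1KO 4236 at 7.43 below WT 2236 at 7.51. The aldehyde dehydrogenase Aldh9a1 (0.32), the carrier Slc22a15 (0.28), 1700008J07Rik (0.38) and Fundc2 (0.53) completed the 10.

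**Figure D2:**
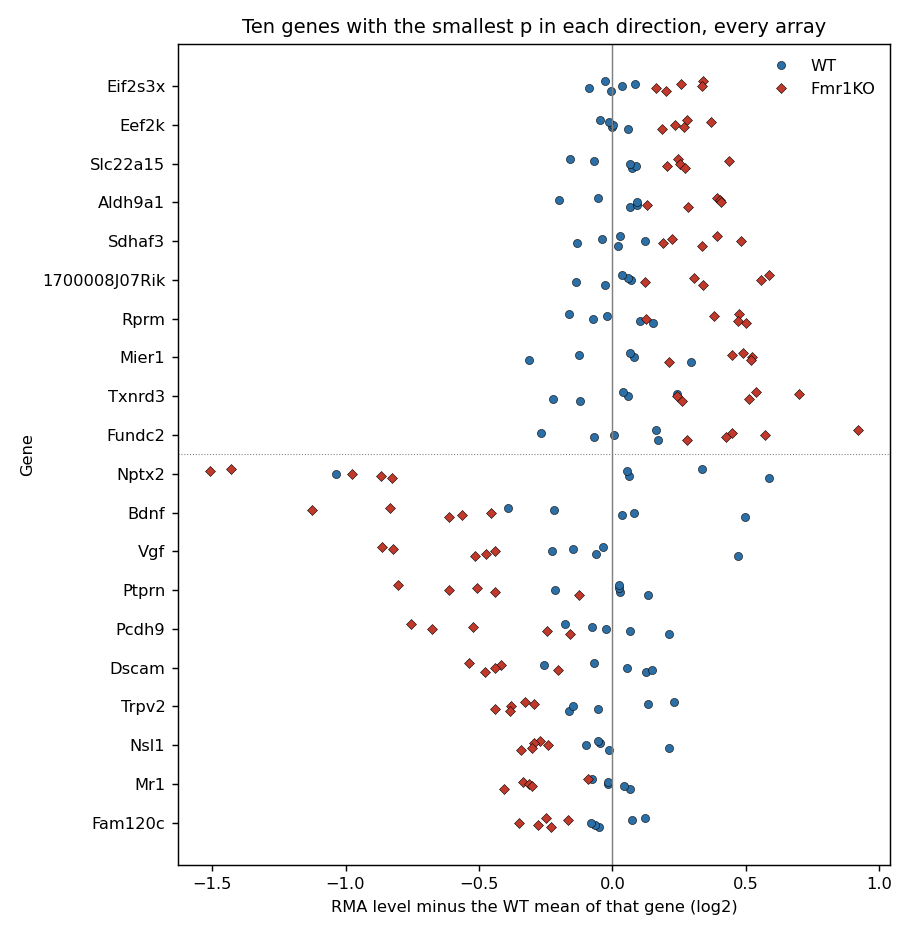
Level of each of the 10 higher and 10 lower genes in every cortical culture array, as the RMA level minus the WT mean of that gene (log2); circles are WT arrays and diamonds Fmr1KO arrays. The lower genes Nptx2, Bdnf and Vgf spread furthest, with log2 differences of -1.12, -0.72 and -0.62, and the genes were chosen by their p in this contrast.

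FMRP's relatives and the receptors of the mGluR pathway were examined next. None of the 18 measured genes for FMRP's family and partners was called, and their median log2 difference was 0.03, beside 0.01 over all genes. Fxr1 and Fxr2, the paralogs of Fmr1, differed by 0.03 (SE 0.11) and -0.14 (SE 0.13). Grm5, which encodes mGluR5, was called lower, at 10.52 ± 0.17 (SD, n = 5) against 10.72 ± 0.05 (SD, n = 5), a log2 difference of -0.20 (SE 0.08). Fmr1KO 2037 was the lowest at 10.30 and Fmr1KO 2038 at 10.72 lay within the WT range. The Grm5 call was lost when arrays were centred on their medians, when WT 2236 was left out and with the astrocyte level as a covariate (unadjusted p = 0.066, 0.058 and 0.16). It was the only call among 22 genes of group I mGluR signaling, whose median was -0.02. Among 25 kinases and phosphatases of long-term potentiation there was no call and a median of 0.04. Among 31 genes of PI3K, AKT and mTOR, 2 were higher: Mapkap1, a subunit of mTOR complex 2 (0.28, SE 0.08), and Prkaa1, a catalytic subunit of AMP kinase (0.54, SE 0.22). The WT mean of Prkaa1, 5.16, was at background, and WT 2643 read 4.32 where the other WT arrays read 5.16 to 5.69. In the RAS to MAPK cascade, 1 of 35 genes was higher, Nras (0.26, SE 0.10), and 2 were lower, the scaffold Ksr2 (-0.29, SE 0.10) and the neuronal exchange factor Rasgrf1 (-0.29, SE 0.12). Calls made up 4.55% of the mGluR list, 6.45% of the PI3K list and 8.57% of the RAS list, beside 4.61% of all genes.

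Most ion channel genes had differences below 0, with few calls. Of 29 voltage-gated potassium channel genes, 3 were called lower and 0 higher, and 4 had a difference above 0; the list's median was -0.12. Kcna1, which sets the threshold of firing in axons, read 9.87 ± 0.22 (SD, n = 5) against 10.24 ± 0.19 (SD, n = 5), a log2 difference of -0.37 (SE 0.12). Kcnh1 differed by -0.40 (SE 0.15), and Kcnh7, which was not above background, by -0.21 (SE 0.08). Of 20 voltage-gated calcium and sodium channel genes, none was called and 3 had a difference above 0, with a median of -0.06. Of 10 GABA-A receptor subunits, 2 were lower: Gabrd, the subunit of extrasynaptic receptors (-0.41, SE 0.15), and Gabra3 (-0.53, SE 0.21), which lies near Fmr1 on the X chromosome. Of 20 NMDA and AMPA receptor genes, 1 was lower, the AMPA receptor auxiliary subunit Cacng5 (-0.39, SE 0.12), and 5 had a difference above 0. Over all genes, 2.17% were called lower and 9628 of 18194 had a difference above 0. With the astrocyte level as a covariate, the median moved from -0.06 to 0.02 for calcium and sodium channels. It also moved from -0.06 to 0.02 for NMDA and AMPA receptors, and from -0.12 to -0.06 for potassium channels. For GABA-A subunits it moved away from 0, from -0.10 to -0.27. The calls were then 1 lower among potassium channels, 1 lower among NMDA and AMPA receptors, and 0 among GABA-A subunits. The part of glial content in these differences was not tested.

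Most genes for handling RNA and protein had small differences above 0, with few calls. Of 61 spliceosome genes, 4 were called higher and 0 lower (2.45% and 2.17% of all genes), and 48 had a difference above 0, with a median of 0.08. The 4 were Dhx16, a helicase (0.24, SE 0.07, without overlap), Rbm17 (0.25, SE 0.11), Snrpe, a core protein of the small nuclear ribonucleoproteins (0.19, SE 0.08), and the splicing regulator Tra2b (0.21, SE 0.10). Without WT 2236 the count was 1 higher and 1 lower, and without Fmr1KO 4236 it was 6 and 0. Of 60 ubiquitin ligases and conjugating enzymes, 4 were higher, Uba3, Cdc23, Ube2h and Traf6, and 1 was lower, Huwe1. Of 38 translation factors, 3 were higher, Eef2k, Eif2s3x and Eif1a (0.26, SE 0.10), and 1 was lower, Eif5b (-0.30, SE 0.12). None of 42 cytosolic ribosomal protein genes was called, and 38 had a difference above 0 at a median of 0.05. None of 31 proteasome genes was called either. Of 26 apoptosis genes, 2 were higher: Dffa, the inhibitor of the caspase-activated DNase (0.36, SE 0.10), and Casp9, the initiator caspase of the mitochondrial pathway (0.25, SE 0.11).

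Markers of cell types were compared, because the cultures hold neurons and glia in proportions that can vary from dish to dish. In RNA from whole cultures, fewer cells of a type and less RNA per cell cannot be told apart. The arrays carried neuronal markers, with 25 of 27 genes of mature glutamatergic neurons and synapses, 16 of 19 genes of GABAergic neurons and all 22 genes of immature neurons above background. Camk2a, a kinase of excitatory synapses, ranged from 11.52 to 12.65 in Fmr1KO and from 11.13 to 12.97 in WT, and Tubb3 at 10.41 in both. None of these 3 lists had a call. Astrocyte (20 of 23) and radial glia markers (15 of 17) were above background too, as were 10 of 19 meninges and fibroblast, 7 of 13 pericyte, 6 of 17 endothelial and 7 of 19 microglia genes. Defining genes at background were Aif1, C1qa and Cx3cr1 of microglia, Cldn5 and Pecam1 of endothelium, and Col1a1 and Col1a2 of fibroblasts. Of the 9 blood genes 1 was above background. The summed meninges and fibroblast signal ranged from 12.53 in Fmr1KO 4236 to 13.93 in Fmr1KO, and from 12.32 in WT NT to 14.10 in WT 2236. Its part in the other results was not tested.

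Radial glia, astrocyte and cell cycle genes were on average higher in Fmr1KO, but not beyond the spread of the arrays. The median difference was 0.29 for 17 radial glia genes with 1 call, Msi1 (0.45, SE 0.14), 0.28 for 23 astrocyte genes with 1 call higher, Fgfr3 (0.40, SE 0.16), and 1 lower, Slc7a10, at background, and 0.30 for 41 cell cycle genes with none. Of the cell cycle genes 38 had a difference above 0. Sox2, a factor of neural progenitors, differed by 0.36 (SE 0.22), the water channel gene Aqp4 of astrocytes by 0.45 (SE 0.31), and the proliferation marker Mki67 by 0.32 (SE 0.33). The radial glia list separated the same arrays as the first component did, and the other lists did so less cleanly. The mean cell cycle level was 7.40 in WT NT and 7.26 in Fmr1KO 2038. The mean astrocyte level was 8.63 in WT 3569 and 8.49 in WT 2644. The summed radial glia signal ranged from 14.20 to 14.74 in Fmr1KO and from 14.10 to 14.87 in WT, on the log2 scale. The mean level of the radial glia list was 8.59 to 8.76 in 4 Fmr1KO arrays and 8.10 in Fmr1KO 4236, and it was 8.09 to 8.25 in 4 WT arrays and 8.75 in WT 2236. Without Fmr1KO 4236, 8 radial glia, 5 astrocyte and 6 cell cycle genes were called higher, where 6.46% of all genes were. Without WT 2236 these counts were 7, 8 and 4, where 4.44% of all genes were. The summed astrocyte signal ranged from 14.64 to 15.18 in Fmr1KO and from 14.55 to 15.04 in WT, and the summed signal of mature glutamatergic genes from 14.74 to 15.40 and from 14.77 to 15.48. The part of these shifts in the other calls was not tested by cell counting; with the astrocyte level as a covariate 542 genes were called (2.98%), 337 higher (1.85%) and 205 lower (1.13%). The 20 genes of smallest p kept an unadjusted p under 0.05, but calls in several lists were lost. The counts were then 1 higher among spliceosome genes, 0 in the PI3K list, 0 in the mGluR list, and 1 higher and 1 lower in the RIG-I and NF-kB list, while translation factors had 4 higher and 0 lower.

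**Figure D3:**
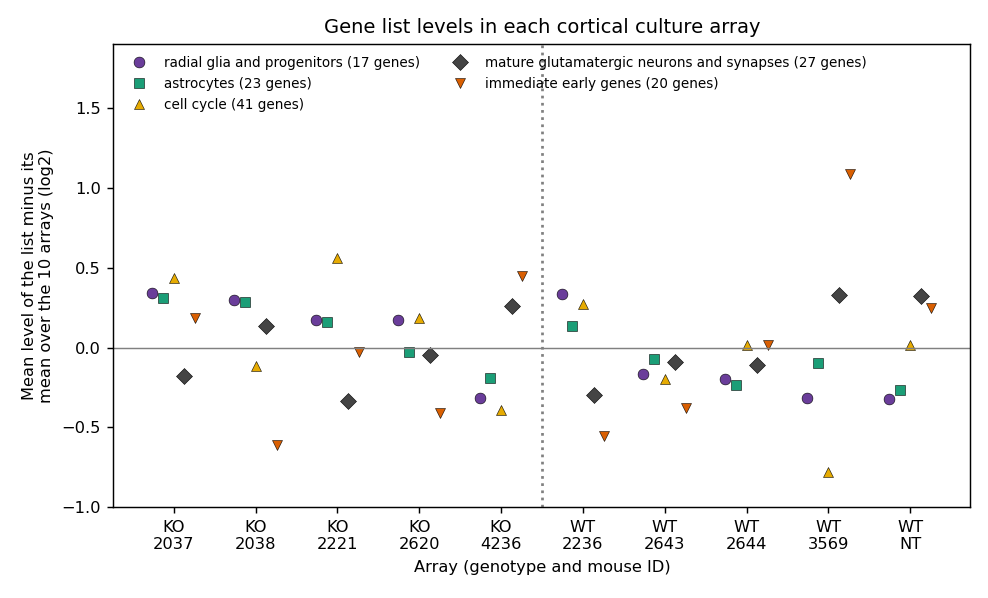
Mean level of 5 gene lists in each of the 10 cortical culture arrays, minus the mean of that list over the arrays (log2). Fmr1KO 4236 has low radial glia and cell cycle levels beside the other 4 Fmr1KO arrays, WT 2236 has high ones beside the other 4 WT arrays, and WT 3569 has the highest level of immediate early genes.

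Immediate early genes, which neurons switch on within minutes of activity, differed widely between dishes of the same genotype. Only Bdnf was called among the 20 genes (lower), and the median was -0.13. Arc, which acts in AMPA receptor endocytosis, read 5.73, 5.43, 5.40, 5.30 and 7.42 in Fmr1KO and 4.95, 4.90, 5.45, 8.66 and 7.87 in WT. It was thus high in Fmr1KO 4236, WT 3569 and WT NT and near background elsewhere, and its log2 difference of -0.51 had a standard error of 0.75. Fos differed by -0.41 (SE 0.54). In cortical culture Bdnf did not follow this order. Its highest level, 10.47, was in WT 2236, where Arc was 4.95, and Fmr1KO 4236 with an Arc level of 7.42 had a Bdnf level of 9.36. In hippocampal culture, by contrast, WT 3569 was the highest array for both, at 8.85 for Arc and 12.81 for Bdnf. The part of activity in the Bdnf difference was not tested.

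Immune and oligodendrocyte genes were examined as well. Of the 19 microglia genes, 2 were lower: Csf1r, the receptor that keeps microglia alive (5.15 ± 0.12 against 5.51 ± 0.24, SD, n = 5 each), and Tmem119, which was not above background. The summed microglia signal was 9.05 to 9.22 in Fmr1KO and 9.21 to 9.39 in WT, and these ranges overlapped. Of the 19 genes 7 were above background, and the Fmr1KO mean of Csf1r lay at the background level of 5.16. These values cannot show whether the genotypes differed in microglia. In the RIG-I-like receptor and NF-kB list 4 of 31 genes were higher (12.9%, beside 2.45% of all genes), Tank (0.25, SE 0.08), Ikbkb (0.28, SE 0.10), Rela and Traf6, and 2 were lower, Map3k14 (-0.30, SE 0.10) and Nfkb2 (-0.34, SE 0.15). Map3k14 and Nfkb2 act in the noncanonical branch of NF-kB signaling, and Ikbkb and Rela in the canonical one. Nfkb2 read 8.29 in WT 2643 and 7.47 to 7.56 in the other WT arrays, so the size of its difference leans on 1 array. The genes not called were not sorted by branch, so these calls do not show how either branch changed. Of 29 interferon response genes 2 were higher, Cmpk2 (0.39, SE 0.12) and Gbp3 (0.20, SE 0.09). The 2 calls among 34 chemokine and cytokine genes, Cxcl2 and Ccl4, were lower, beside 2.17% of all genes, and at or close to background. Without WT 2236 this list had 6 calls higher and 1 lower, without Fmr1KO 4236 it had 2 and 1, and with arrays centred it had 0, so its direction depends on single arrays. Of 19 oligodendrocyte lineage genes, 11 were above background. Among the 19, 1 was called higher, Cnp (0.54, SE 0.15), and 1 lower, Opalin, which was at background. A difference above 0 was found for 12 and below 0 for 7, with a median of 0.08. Olig1 and Olig2 differed by 0.17 (SE 0.15) and 0.31 (SE 0.30).

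Neighbours of Fmr1 on the X chromosome were examined, since a knockout made in embryonic stem cells can carry flanking sequence of another strain. Of 98 genes within 10 Mb of Fmr1, 7 were called higher and 4 lower, beside 2.45% and 2.17% of all genes; beyond 10 Mb, 11 of 518 X-linked genes were higher and 7 lower. The largest difference of the 98 was that of Fundc2, which encodes a mitochondrial outer membrane protein, at chrX:75382399-75397158. It read 9.45, 8.98, 9.10, 8.96 and 8.81 in Fmr1KO and 8.70, 8.46, 8.54, 8.26 and 8.70 in WT. No array overlapped, and the log2 difference was 0.53 (SE 0.13). Its other probe set above background went the other way, at -0.26 (SE 0.17), so the direction for Fundc2 depends on the probe set. Mtcp1, the next of the called genes, was higher by 0.38 (SE 0.10), also without overlap, and nearby Vbp1, a prefoldin subunit, by 0.22 (SE 0.09). Dkc1, the pseudouridine synthase of telomerase RNA, was higher by 0.30 (SE 0.12), and Hmgb3, Emd and Gm715 by 0.18, 0.16 and 0.35. Aff2, the FMR2 gene, which starts 0.68 Mb from Fmr1, differed by -0.36 (SE 0.13), at 5.21 ± 0.28 against 5.58 ± 0.10 (SD, n = 5 each), close to background. Gabra3, Pnma3 and the pseudogene Magea7-ps differed by -0.53, -0.25 and -0.18. Flanking strain sequence and the loss of Fmr1 cannot be told apart in this design.

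**Figure D4:**
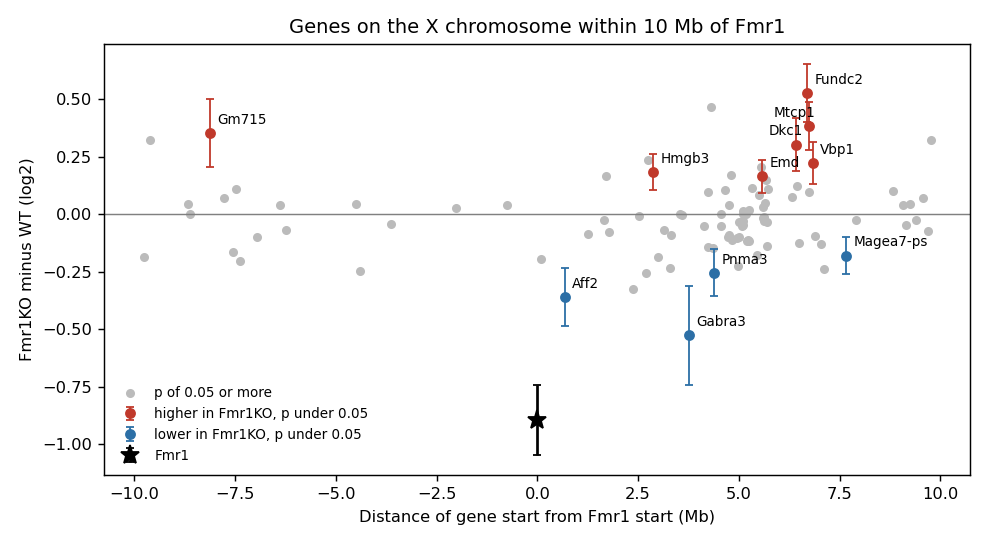
Fmr1KO minus WT difference (log2) of 98 X-linked genes against the distance of their starts from the start of Fmr1 (Mb), with Fmr1 as a star and standard errors for called genes. Of the genes called higher, Dkc1, Fundc2, Mtcp1 and Vbp1 lie between 6.42 and 6.84 Mb from Fmr1.

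Autism candidates and FMRP's messenger RNA targets were counted with the lists the study used. Of 574 measured SFARI autism candidate genes, 10 were called higher (1.74%) and 31 lower (5.40%), beside 2.45% and 2.17% of all genes. Fmr1 was among the lower ones, as were Dscam, Bdnf, Pcdh9 and Aff2. The median over the list was -0.01. With each array centred on its median the counts were 16 and 17 (3.75% and 1.15% of all genes), without Fmr1KO 4236 they were 34 and 40 (6.46% and 3.24%), and without WT 2236 they were 20 and 34 (4.44% and 3.23%). Of 819 measured FMRP binding targets, 25 were higher (3.05%) and 10 lower (1.22%), and 499 had a difference above 0, at a median of 0.03. Leading examples were Mapk7, or ERK5 (0.40, SE 0.12), and the AMPA receptor scaffold Grip1 (0.32, SE 0.11), and on the lower side the kinase Lmtk2 (-0.33, SE 0.10). Without Fmr1KO 4236 the counts for targets were 70 and 20, and without WT 2236 they were 59 and 13.

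The knockout effect was then set beside that in hippocampal culture and in primary cortex, which is uncultured embryonic tissue, each with its own 5 Fmr1KO and 5 WT arrays from the same mouse IDs. At an unadjusted p under 0.05, 1159 genes were called in hippocampal culture (6.37%) and 435 in primary cortex (2.39%). Of the 839 genes called in cortical culture, 123 were also called in hippocampal culture, and 121 of these went the same way, 96 higher and 25 lower, where 4.72% and 1.65% of all genes were higher and lower in hippocampal culture. These 121 are 14.4% of the cortical culture calls and 10.4% of the hippocampal culture calls. Of the same 839 genes, 26 were called in primary cortex (3.10%), 16 of them in the same direction. The same mouse IDs stand on both sets of culture arrays, which are therefore not independent. After Fmr1, the genes shared by both cultures with the smallest p in cortical culture were Dscam, Trpv2, Fundc2, Sdhaf3, Aldh9a1, Pcdh9, Fam120c and Mtcp1.

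All 10 lower genes had a difference below 0 in hippocampal culture too, from -0.05 for Mr1 to -0.92 for Nptx2. The share of all genes with a like sign in both cultures is not given here, and the cultures share mouse IDs. This count is therefore no independent replication. Vgf differed there by -0.72 (SE 0.41), Bdnf by -0.58 (SE 0.54), Nptx2 by -0.92 (SE 0.52), Ptprn by -0.42 (SE 0.27), Dscam by -0.32 (SE 0.11) and Pcdh9 by -0.42 (SE 0.16). Hippocampal culture WT 3569 read 7.97 for Nptx2, 12.81 for Bdnf and 11.97 for Vgf. The other WT arrays of that culture read 4.49 to 5.93, 9.88 to 11.49 and 10.06 to 10.90. The sizes for Nptx2, Bdnf and Vgf thus lean on a single array. Fmr1KO levels of Nptx2 in hippocampal culture (4.52 to 5.29) lay around background. In primary cortex the same genes, from Vgf to Pcdh9 in that order, differed by -0.13 (SE 0.37), -0.20 (SE 0.15), -0.07 (SE 0.10), 0.21 (SE 0.10), -0.01 (SE 0.12) and -0.12 (SE 0.19). Nptx2 read 4.01 to 4.49 in primary cortex, below the background level of 5.16, and Bdnf read 4.82 to 5.78, around it. A decrease cannot be followed there. For these genes the small difference in tissue, and the contrast with cortical culture, therefore cannot show that the effect is absent from tissue. The difference of the knockout effect between cortical culture and primary cortex was tested directly in limma. It had an unadjusted p under 0.05 for 717 genes (3.94%), 240 above (1.32%) and 477 below 0 (2.62%), and an adjusted p under 0.05 for 0. It was -1.05 (SE 0.30) for Nptx2, -0.70 (SE 0.16) for Ptprn, -0.52 (SE 0.24) for Bdnf and -0.41 (SE 0.16) for Dscam, each at an unadjusted p under 0.05 in genes chosen for their change in cortical culture. For Vgf it was -0.49 (SE 0.42) and for Pcdh9 -0.35 (SE 0.24). Among the higher genes it was 0.52 (SE 0.15) for Rprm and 0.47 (SE 0.13) for Txnrd3. Against hippocampal culture, 388 genes had an unadjusted p under 0.05 (2.13%) and 0 an adjusted one. With the mouse ID as a block the paired analysis called 634 genes in this comparison and 727 in that with primary cortex.

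**Figure D5:**
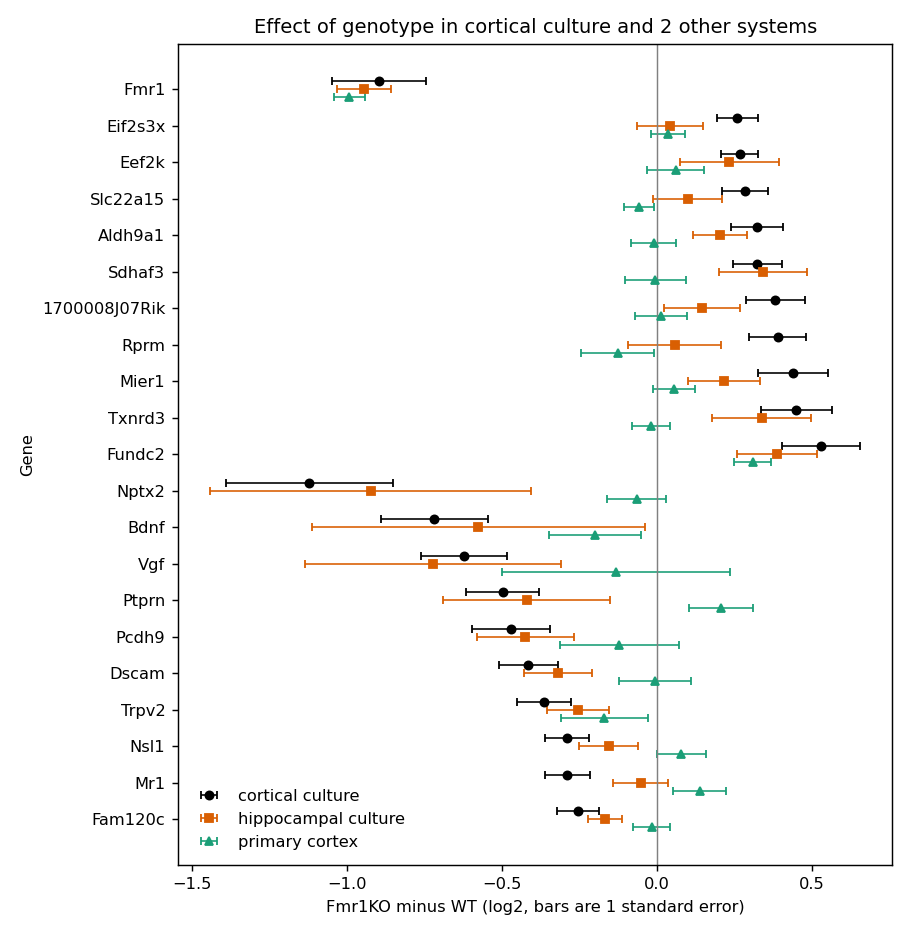
Fmr1KO minus WT difference (log2) with 1 standard error for Fmr1 and the 20 named genes in cortical culture (black circles), hippocampal culture (orange squares) and primary cortex (green triangles), 5 arrays per genotype each. Fmr1 differs by -0.90, -0.94 and -0.99, and Nptx2 by -1.12, -0.92 and -0.07. Nptx2 lies below background in primary cortex.

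Besides Fmr1, 2 genes were called in the same direction in cortical culture and in each of the 3 other systems, of which primary hippocampus had 1.77% of genes called. They are Fundc2 and Dffa, singled out after their values were seen. Dffa, which lies on chromosome 4 and not on the X, read 7.90, 8.11, 8.17, 8.17 and 8.15 in Fmr1KO cortical culture and 7.44, 7.66, 7.80, 7.96 and 7.86 in WT, with an overlap by 1 Fmr1KO array. Its difference was 0.36 (SE 0.10) in cortical culture, 0.46 (SE 0.11) in hippocampal culture, 0.50 (SE 0.08) in primary cortex and 0.83 (SE 0.10) in primary hippocampus. For Fundc2 the 4 differences were 0.53 (SE 0.13), 0.39 (SE 0.13), 0.31 (SE 0.06) and 0.21 (SE 0.08).

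Sex-linked genes were compared because pooled litters can differ in their share of males. Xist, the noncoding RNA of the inactive X, differed by 0.29 (SE 0.34), and the Y-linked genes Eif2s3y and Kdm5d differed by -0.16 (SE 0.50) and -0.21 (SE 0.32). Uty stood at 5.22 in Fmr1KO and 5.23 in WT. Of the 6 sex chromosome genes, 1 was called, Usp9y on the Y, with a log2 difference of -0.17 (SE 0.06) without overlap but below background in every array, at 3.58 to 3.64 against 3.71 to 3.85. Eif2s3y ranged from 6.32 to 8.18 in Fmr1KO and from 6.02 to 8.68 in WT, so each genotype held pools with more and with less Y-linked RNA. With the mean Y-linked level as a covariate 1339 genes were called.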

How the data were processed

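RNA from 10 cortical culture samples had been hybridized to Affymetrix mouse arrays. The authors deposited log2 values made with RMA (background correction, quantile normalization and a summary per probe set, affy package); which arrays were normalized together is not given in the sources used here. The deposited values were used unchanged. Arrays give no counts, so their number limits the precision. Of 45101 probe sets, 64 controls were left out and 45037 were tested; 34945 carried 1 gene symbol, 932 several and 9160 none in the platform annotation, and only the first were named. Each of 18194 genes took the probe set with the highest mean over 42 arrays. A probe set was above background when its higher group mean passed 5.16, the 95th percentile of 123 probe sets for olfactory, vomeronasal and keratin-associated genes.

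Differential expression was computed in R 4.3.3 with limma 3.58.1 (lmFit, eBayes) on the 10 arrays (8 residual degrees of freedom), the differences between systems on 20 arrays, and p was adjusted by Benjamini and Hochberg over all probe sets. Calls use the study's unadjusted p under 0.05. Exact permutation tests used SciPy 1.17.1. The fit was tested on simulated data. Named genes are Fmr1, its family members, the 10 genes of smallest p above background in each direction, called members or defining genes of each list, called genes within 10 Mb of Fmr1, and sex-linked genes; those of 1.5-fold change, those called in several systems and the TGACG search were added after values were seen. The members and lists were chosen with earlier results of these data known, and the SFARI and FMRP target lists were those of the study. Positions and sequences are from RefSeq, GRCm38.p6.

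The labels give each array a mouse ID and describe its tissue as pooled from littermates, and the IDs recur across systems, which pairs arrays of different systems by label. Whether an ID stands for a litter or a dam is not given in the sources used here. Fmr1KO and WT arrays were not paired. Same-numbered deviations from group means correlated between cortical and hippocampal culture at 0.29 to 0.65 in Fmr1KO and -0.31 to 0.26 in WT, and between cortical culture and primary cortex at -0.18 to 0.23. Alternatives were another scaling, other sets of arrays, array weights, covariates, thresholds, probe set choice and leaving out each array.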

Additional observations from a re-analysis of the deposited data

Results flagged for a closer look

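A single array stood far from the others of its genotype in 8 of 70 tested sets of 5 arrays. Chance gives about 1 in 20 for sets that are independent. These sets reuse the same 10 arrays and some lists share genes, so the count is no test against chance. Fmr1KO 4236 scored -29.3 on the first principal component, the others 9.75 to 16.5. Its mean level of radial glia genes was 8.10 (others 8.59 to 8.76), that of meninges and fibroblast genes 5.91 (others 6.50 to 6.64), and its Mier1 level 7.43 (others 7.67 to 7.74). WT 2236 had a radial glia level of 8.75 (others 8.09 to 8.25) and a Vgf level of 11.18 (others 10.48 to 10.68). WT 2643 had an Nsl1 level of 6.70 (others 6.39 to 6.48). WT 3569 had an oligodendrocyte lineage level of 5.79 (others 6.19 to 6.34). The cause of these deviations was not tested.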

How the results depend on the processing

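The 839 calls became 1858 with all 42 arrays in 1 fit, 1731 with array weights, 1339 with the Y-linked level as a covariate, 542 with the astrocyte level as a covariate (chosen after seeing the data), 1609 with the smallest p of each gene's probe sets and 97 at an unadjusted p under 0.01. Leaving out each array gave 490 (without Fmr1KO 2037) to 1764 (without Fmr1KO 4236), and 1395 without WT 2236. The cause was not tested. At an adjusted p, 1 gene, Fmr1, passed in the 42-array fit and 0 in the others. The Fmr1 difference stayed between -1.02 and -0.82 in the fits without 1 array. The difference from primary cortex was called for 388 genes with probe sets above background only, and for 555 to 1525 without 1 array (1525 without Fmr1KO 4236, 1335 without WT 2236). That from hippocampal culture was called for 827 genes in the 42-array fit, 206 above background, and 314 to 1000 without 1 array (820 without Fmr1KO 4236, 1000 without WT 2236). With the mouse ID as a replicate block these comparisons called 727 and 634 genes. The difference for Mr1 from hippocampal culture had an unadjusted p of 0.0458 without the block and 0.0583 with it, and the block changed no other call among the named genes. All 20 named genes kept an unadjusted p under 0.05 without any 1 array, having been chosen for a small p. Vgf lost it in the fits of 42 arrays and of 20 culture arrays, and Bdnf in the latter. Genes near background, such as Mr1 and Aff2, are limited by signal.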

Other observations

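The mean level of the 20 immediate early genes was set beside that of the other arrays with the same mouse ID. Between cortical and hippocampal culture it correlated over 10 mouse IDs with Pearson's r = 0.94 (permutation p = 0.0001, adjusted 0.0002) and Spearman's rho = 0.94 (permutation p = 0.00016, adjusted 0.00032). Without the 2 mouse IDs farthest from the median, 3569 and 2038, r was 0.89 over 8. Between cortical culture and primary cortex r was -0.35 (permutation p = 0.32) and rho -0.13 (permutation p = 0.73). These are the 2 relations computed, with 100000 resamples each.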
